A study of Harpegnathos saltator with 27 samples.

Results

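The fat body response to 20-hydroxyecdysone (20E) was measured in workers of the ant Harpegnathos saltator. All 3 abdominal fat body libraries of workers injected with 20E were set against all 3 fat body libraries of workers injected with solvent, labelled EtOH. These are 6 of the 27 libraries of the series, which also holds the non-visual brain and the ovary, and a further treatment with a juvenile hormone analogue labelled JHA (methoprene). Each hormone was given into the abdomen as 500 ng in Hank's balanced salt solution. The solvent ants received about 1 µL of 10% EtOH in the same solution, and all tissues were taken 12 hours later. No EtOH content or volume is stated in the labels for the hormone injections. The design gives 3 individuals for each treatment, so the p-values within the fat body set a difference against the spread between ants. For the gene tests that spread was estimated over all 9 fat body libraries, JHA included. Neither the strain nor the age of the ants is stated in the labels, and no ant was left uninjected among these libraries.

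The fat body is the main storage and metabolic organ of insects and serves functions that the liver and adipose tissue share in vertebrates. In females of many species it makes yolk proteins, which are released into the haemolymph and taken up by the oocytes. 20E is the active form of the insect moulting hormone. It binds the ecdysone receptor, a nuclear receptor that pairs with Ultraspiracle on DNA, and in adult females of many insects it takes part in the control of reproduction.

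The table lists 20659 gene identifiers with no names, and 0 of them were found in a reference table of 14329 genes of the species. The genes below are therefore described by level, size of change and behaviour in other libraries, and no function is given to any of them. Gene counts ran to 15.5 to 16.7 M (mega) in the 20E libraries and 13.1 to 15.8 M in the EtOH libraries, and 9870 genes had enough counts to test. Levels are given as CPM, the counts of a gene per M counts of the normalised library size, or as a percentage of the gene counts of a library. Fold changes are 20E over EtOH. Genes were called where edgeR's quasi-likelihood test over all 9 fat body libraries gave a p under 0.05 after Benjamini-Hochberg adjustment.

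The tissue label was examined with 198 genes that were at least 8-fold higher in JHA-injected fat body than in JHA-injected brain and ovary. These are not among the 20E and EtOH libraries compared, though the JHA fat body libraries enter the edgeR fit. In the 20E and EtOH fat body libraries these genes took 37.4 to 45.3% of gene counts, and in the 12 brain and ovary libraries of the same treatments 0.715 to 1.83%. Genes chosen in the same way for brain, 810 in number, took 0.166 ± 0.0493% of gene counts in 20E fat body and 0.177 ± 0.0413% in EtOH fat body (SD, n = 3 each). In brain itself those genes took 14.2 to 17.9%. For the 253 ovary genes the shares were 0.174 ± 0.0354% with 20E and 0.147 ± 0.0110% with EtOH (SD, n = 3 each), against 4.82 to 7.83% in ovary. For all 3 lists the treatments differed by less than the larger SD (exact permutation test, two-sided, p = 0.8 for fat body and brain genes and p = 0.3 for ovary genes). With 3 ants against 3 the smallest p that this test can give is 0.1.

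The treatments also differed in how reads were assigned, which was examined after the data were seen. Reads that aligned to several places made up 17.9 ± 0.745% of all reads in the table with 20E and 15.6 ± 0.534% with EtOH (SD, n = 3 each), and the groups did not overlap. Reads outside any gene made up 27.4 ± 1.22% with 20E and 30.6 ± 0.772% with EtOH (SD, n = 3 each), again with no overlap. Reads that matched more than 1 gene made up 2.11 ± 0.132% with 20E and 1.85 ± 0.170% with EtOH (SD, n = 3 each). Each of the 3 differences reached the smallest p of the exact permutation test, 0.1, and 0.1 after adjustment over the 3. The JHA libraries spanned 14.3 to 17.6%, 26.2 to 32.2% and 1.64 to 2.24% for the same classes, which overlaps both groups. Whether these shares had a part in the gene results was not tested.

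After 20E, 59 genes rose and 41 fell, so 100 of 9870 tested genes, or 1.01%, were called. The rises made up 0.598% of tested genes and the falls 0.415%. At an unadjusted p under 0.05 there were 1405 genes, 14.2% of those tested, of which 673 were higher and 732 lower. The median log2 fold change over all tested genes was -0.01, and 49.0% of them lay above 0. In all 100 called genes the 3 libraries of 20E lay outside the range of the EtOH libraries. The same separation, without any test, was seen in 908 tested genes that were higher with 20E (9.2%) and in 877 that were lower (8.89%).

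The rises spanned a wider range of fold changes than the falls. Their median log2 fold change was 2.44, with a range of 0.70 to 5.53, and 56 of 59 rose at least 2-fold, 36 at least 4-fold and 19 at least 8-fold. Some of the largest fitted values rest on few solvent reads. The 2 rises with 3 counts or fewer in every EtOH library had values of 5.53 and 4.54. The largest value among the others, 4.97, also rested on low EtOH counts of 8, 12 and 4. The falls had a median log2 fold change of -1.54 and ran from -3.19 to -0.76. Of the 41 falls, 35 were at least 2-fold, 11 at least 4-fold and 1 at least 8-fold. In bulk tissue, fewer cells of a type and less RNA per cell cannot be told apart.

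**Figure D1:**
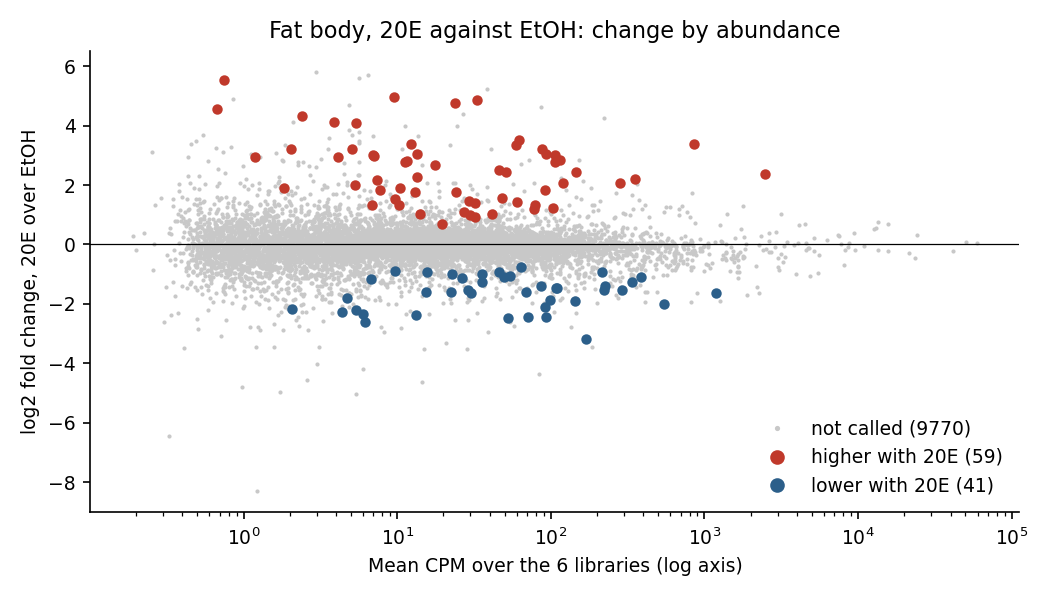
Each point is a tested fat body gene, placed by its mean CPM over the 6 libraries (horizontal, log axis) and its log2 fold change of 20E over EtOH (vertical). The 59 red points are genes higher with 20E and the 41 blue points genes lower with 20E; most called genes lie below 1000 CPM, and the rises reach further from 0 than the falls.

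Called genes were found at every level of abundance and most were neither rare nor dominant. The median rise had a mean of 23.7 CPM over the 6 libraries and the median fall 52.6 CPM, beside 13.5 CPM over all tested genes. Under 10 CPM, 18 genes rose and 8 fell out of 4232, a share of 0.614%. Between 10 and 100 CPM, 31 rose and 21 fell out of 4593, or 1.13%. Between 100 and 1000 CPM, 9 rose and 11 fell out of 936, or 2.14%. At 1000 CPM or more, 1 rose and 1 fell out of 109, or 1.83%.

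The rise with the smallest p belonged to HSALG001741.2. It had 64.6, 61.9 and 66.4 CPM in the 20E libraries, against 2.14, 1.81 and 2.60 CPM in the EtOH libraries. The ants of each treatment lay close together, and every 20E library stood far above every EtOH library. The means were 64.3 ± 2.28 CPM with 20E and 2.19 ± 0.398 CPM with EtOH (SD, n = 3 each), a log2 fold change of 4.87 (SE 0.36, adjusted p = 0.00198, edgeR). The 3 JHA libraries had 3.82, 1.30 and 2.25 CPM, a range that takes in the solvent levels. This rise passed in all 18 alternative fits.

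HSALG001307.1 rose by the largest number of CPM. It had 4087, 5162 and 3179 CPM in the 20E libraries, against 717, 1047 and 650 CPM in the EtOH libraries. The lowest 20E library was about 3 times as high as the highest EtOH library, and the gene stood 53rd by abundance over the 6 libraries. Means were 4143 ± 993 CPM with 20E and 805 ± 213 CPM with EtOH (SD, n = 3 each), a 5.15-fold rise (log2 fold change 2.36, SE 0.37, adjusted p = 0.0236, edgeR). Its libraries of JHA-injected ants, at 3423, 1547 and 2508 CPM, also all lay above the EtOH range. The call held in 12 of 18 alternative fits, and its losses included each fit in which any of the 3 EtOH libraries, 20E replicate 2 or JHA replicate 3 was left out, with adjusted p up to 0.101.

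HSALG000359.2 was the fall with the smallest p. Its levels were 17.2, 13.2 and 13.3 CPM in the 20E libraries, against 51.8, 39.8 and 45.0 CPM in the EtOH libraries. All 3 libraries of 20E were thus well below the lowest EtOH library. The means were 14.6 ± 2.32 CPM with 20E and 45.5 ± 5.98 CPM with EtOH (SD, n = 3 each), a log2 fold change of -1.64 (SE 0.18, adjusted p = 0.00739, edgeR). The JHA libraries had 35.6, 44.6 and 40.5 CPM. This fall passed in all 18 alternative fits.

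HSALG029290.1 fell by the largest number of CPM. It had 773, 503 and 476 CPM in the 20E libraries, against 1866, 1720 and 1802 CPM in the EtOH libraries. The EtOH ants were close to each other, while 20E replicate 1 lay above the other libraries of its group. Means were 584 ± 164 CPM with 20E and 1796 ± 73.0 CPM with EtOH (SD, n = 3 each), a log2 fold change of -1.62 (SE 0.30, adjusted p = 0.0454, edgeR). The JHA libraries ran widely, with 1283, 2172 and 1335 CPM. Only 9 of 18 alternative fits kept this call, with adjusted p up to 0.164 when 20E replicate 3 was left out; the other losses included the fits without each EtOH library, 20E replicate 2, JHA replicate 1 or JHA replicate 3, and with the 6 libraries alone.

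**Figure D2:**
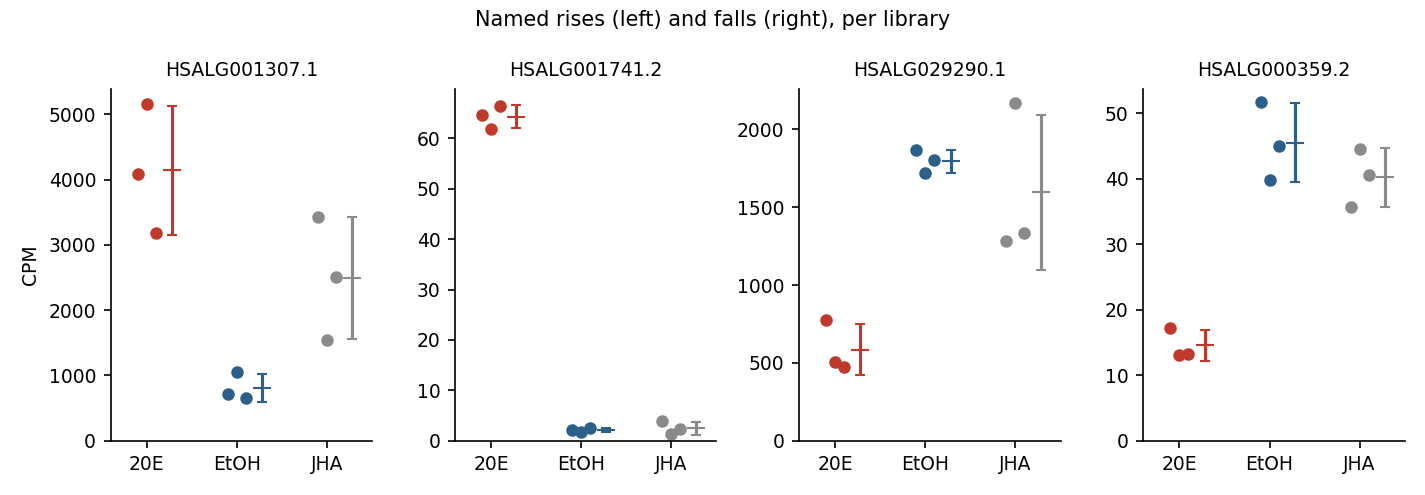
Levels in CPM of 2 named rises and 2 named falls in every fat body library, with 20E left, EtOH in the middle and JHA right; points are libraries, and the bars beside them give the mean and SD (n = 3). In all 4 genes the 20E libraries lie apart from the EtOH libraries.

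Few other called genes moved a comparable amount of RNA. The second largest rise in CPM had 652, 2130 and 1883 CPM in the 20E libraries, against 116, 208 and 126 CPM in the EtOH libraries (log2 fold change 3.37, adjusted p = 0.0144, edgeR). Its lowest 20E library was replicate 1, well below both other 20E libraries. The next rise had 585 ± 150 CPM with 20E and 126 ± 21.3 CPM with EtOH (SD, n = 3 each). Among the falls, the second largest had 219 ± 76.5 CPM with 20E and 872 ± 87.6 CPM with EtOH (SD, n = 3 each; log2 fold change -2.00, adjusted p = 0.0204, edgeR).

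The called genes held a small part of the fat body's RNA. The 59 rises took 0.776, 1.16 and 1.06% of gene counts in the 20E libraries, against 0.167, 0.205 and 0.180% in the EtOH libraries. Without HSALG001307.1 the other rises took 0.373, 0.667 and 0.721% with 20E and 0.0991, 0.111 and 0.112% with EtOH. The 41 falls took 0.288, 0.239 and 0.236% with 20E and 0.711, 0.671 and 0.791% with EtOH. These shares describe genes chosen for their difference and are no separate evidence of it.

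The 20E libraries differed in the levels of the called genes, which were chosen on these same values. Whether the ants differed in the size of their response was not tested. Replicate 1 had the lowest 20E level in 34 of 59 rises (57.6%, beside 31.5% of all tested genes), and replicate 3 the highest in 35 (59.3%, beside 33.7%). Among the 41 falls, replicate 1 had the highest 20E level in 20 (48.8%, beside 31.6%), and replicate 3 the lowest in 20 (48.8%, beside 35.1%). The EtOH libraries were uneven too. EtOH replicate 3 was the highest of its group in 44.1% of rises, beside 34.8% of all tested genes. EtOH replicate 1 was the highest in 46.3% of falls, beside 34.1%. EtOH replicate 2 was the lowest in 40.7% of rises and 39.0% of falls, beside 33.6%. The median rise stood 1.80, 2.19 and 2.21 above the EtOH mean in 20E replicates 1, 2 and 3, on the scale log2(CPM + 0.5). The median fall stood at -1.30, -1.60 and -1.68 on the same scale. When 20E replicate 1 was left out, 105 genes were called, of which 76 rose and 29 fell, and 50 of the 59 rises and 17 of the 41 falls were among them.

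The spread between ants was also compared for the called genes. The median coefficient of variation of the rises was 31.3% with 20E and 22.3% with EtOH, and it was larger with 20E in 42 of 59. For the falls the medians were 18.5% with 20E and 12.1% with EtOH, and 25 of 41 were larger with 20E. Over all tested genes the medians were 20.4% with 20E and 21.4% with EtOH, with 48.9% of genes larger with 20E. The calls were selected for separation between these groups, so their spread is described without a test.

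**Figure D3:**
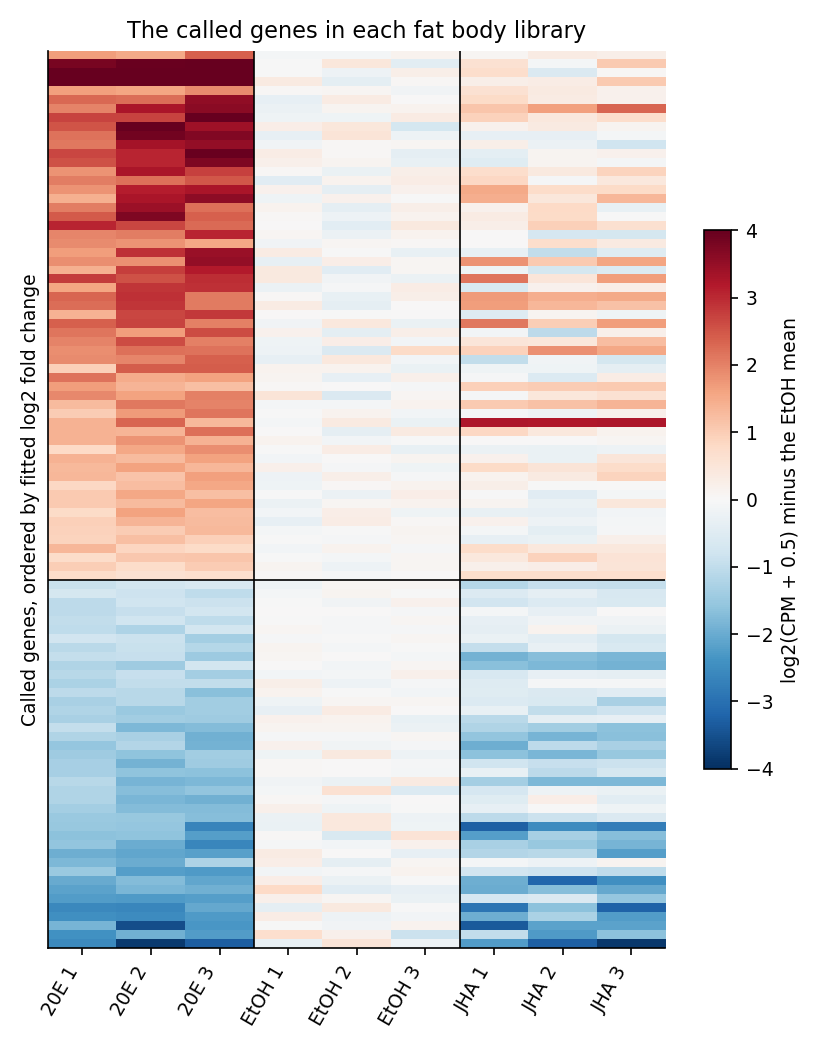
The 100 called genes (rows, ordered by fitted log2 fold change, rises above the black line and falls below it) in the 9 fat body libraries (columns, 20E left, then EtOH and JHA); colour gives log2(CPM + 0.5) minus the mean of the EtOH libraries, limited to the range from -4 to 4. The 20E columns are red in the upper block and blue in the lower block, and the JHA columns are paler, with a median of 0.23 to 0.31 for the rises and -1.01 to -0.92 for the falls.

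The JHA-injected ants provide a second hormone at the same dose in mass and the same time, but they share the EtOH libraries with the 20E comparison. Since the genes were called in part by those EtOH levels, values are given side by side with no comparison of the hormones. The median level of the 59 rises was 37.0 CPM with 20E, 10.3 CPM with JHA and 9.28 CPM with EtOH. For the 41 falls it was 28.7 CPM with 20E, 35.3 CPM with JHA and 72.7 CPM with EtOH.

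The share of counts held by the most abundant fat body genes overlapped between the treatments. The 10 genes with the highest mean over the 6 libraries took 28.1 ± 4.18% of gene counts with 20E and 26.8 ± 1.56% with EtOH (SD, n = 3 each). Ranges overlapped, at 24.0 to 32.4% with 20E and 25.3 to 28.4% with EtOH (exact permutation test, two-sided, p = 0.8). None of the 10 was called, beside 1.01% of all tested genes, so a count of 0 says little about so few, and their log2 fold changes ran from -0.45 to 0.75 with a smallest adjusted p of 0.40 (edgeR). Counting error on the share of each library's own 10 most abundant genes was at most 0.0243 percentage points (Wilson 95% interval, which covers counting error only), below the spread between libraries.

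The gene at the head of that list, HSALG002043.2, took 5.67, 9.45 and 2.92% of gene counts in the 20E libraries, against 7.91, 3.83 and 5.22% in the EtOH libraries. HSALG009096.2, the next, took 5.92, 6.99 and 2.59% with 20E and 5.34, 2.32 and 6.99% with EtOH. In both genes the ants of 1 treatment differed about as much as all 6 ants together, and the groups overlapped widely. The log2 fold change was 0.06 for HSALG002043.2 (SE 0.75, adjusted p = 0.986, edgeR) and 0.08 for HSALG009096.2 (SE 0.62, adjusted p = 0.977, edgeR), and both signs changed when single libraries were left out.

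HSALG013133.2 was steadier, with 4.20, 3.02 and 4.37% of gene counts in the 20E libraries and 4.63, 4.80 and 3.28% in the EtOH libraries. Its log2 fold change was -0.22 (SE 0.35, adjusted p = 0.846, edgeR). HSALG020002.1 took 2.59, 2.36 and 3.21% with 20E and 1.70, 2.42 and 2.04% with EtOH, a log2 fold change of 0.32 (SE 0.33, adjusted p = 0.737, edgeR). HSALG011056.2 took 2.25, 2.32 and 1.32% with 20E and 2.63, 3.47 and 1.54% with EtOH, a log2 fold change of -0.45 (SE 0.41, adjusted p = 0.689, edgeR). None of the 3 separated the treatments. Within a treatment, the highest ant exceeded the lowest by 1.36 to 3.24 times with 20E and by 1.06 to 3.33 times with EtOH over the 10 genes.

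**Figure D4:**
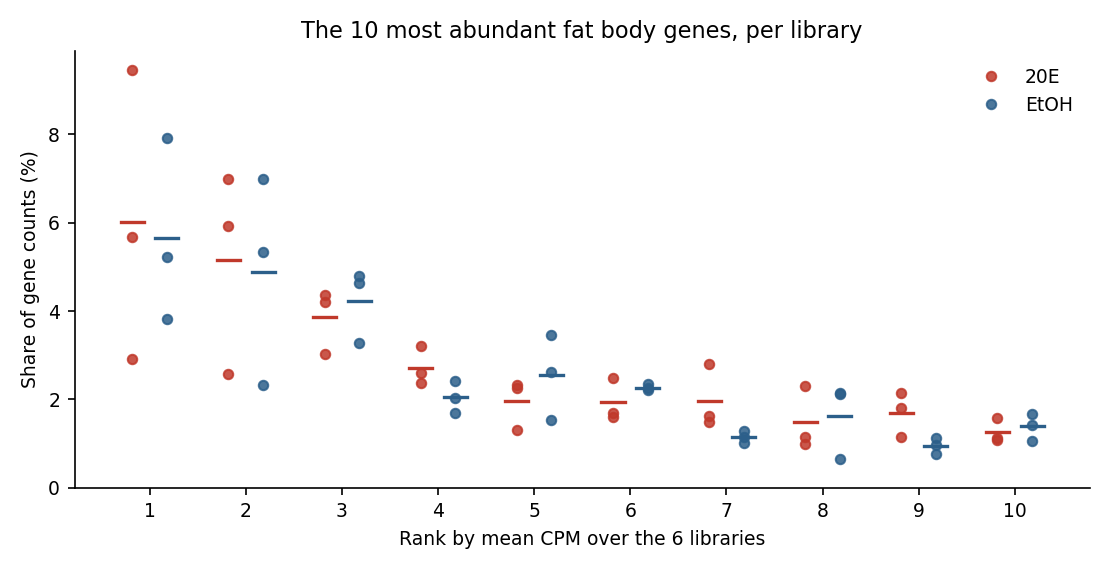
Share of gene counts (percent, vertical) of the 10 most abundant fat body genes, ordered by mean CPM over the 6 libraries; points are libraries, short lines the mean of 3, with 20E in red on the left and EtOH in blue on the right of each rank. The points of the treatments overlap for every gene but the one at rank 7. Over all tested genes, 9.2% did not overlap with 20E higher and 8.89% with 20E lower.

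Those 5 leading genes took smaller shares of the solvent libraries of the other tissues. In EtOH brain they took 0.0660, 0.124, 1.02, 0.940 and 0.0496% of gene counts, in the order above. In EtOH ovary they took 0.000292, 0.0734, 0.000934, 0.0192 and 0.00241%. The seventh most abundant gene was the only one of the 10 whose groups did not overlap, with 1.49, 1.63 and 2.80% with 20E and 1.15, 1.30 and 1.01% with EtOH. It was not called (log2 fold change 0.68, adjusted p = 0.40, edgeR). Over all tested genes the groups did not overlap in 9.2% with 20E higher and in 8.89% with 20E lower, so 1 of 10 says little.

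Further down the ranking, 1 of the 100 most abundant genes rose and 1 fell, the 2 with the largest differences in CPM described above. Over all tested genes 1.01% were called. The 100 took 58.3 ± 2.55% of gene counts with 20E and 57.5 ± 0.986% with EtOH (SD, n = 3 each; exact permutation test, two-sided, p = 0.7). In 4 of them all 20E libraries lay above the EtOH libraries, beside 9.2% of all tested genes. In 14 all lay below, beside 8.89%. A fold change below 0 was fitted for 65 of the 100, beside 51.0% of all tested genes, and for 62 to 65 under 4 ways of scaling. The median log2 fold change of the 100 was -0.20, beside -0.01 over all tested genes. Of the 1000 most abundant genes 9 rose and 12 fell, beside 0.598% and 0.415% of all tested genes.

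The number of genes that together held 50% of gene counts was 46.3 ± 10.0 with 20E and 54.7 ± 4.04 with EtOH (SD, n = 3 each). The groups overlapped, with 36 to 56 genes in 20E libraries and 51 to 59 in EtOH libraries (exact permutation test, two-sided, p = 0.3). Fat body-enriched genes took 41.8 ± 4.07% with 20E and 41.4 ± 1.49% with EtOH (SD, n = 3 each). After adjustment over the 6 shares and numbers tested in this way, every p was 0.8.

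The called genes were also set against the tissue-enriched lists. Of the genes with at least 10 CPM in JHA-injected fat body, 198 of 5607 (3.53%) were fat body-enriched, and these included 0 of 30 rises and 4 of 33 falls (12.1%). Of the genes with at least 10 CPM in JHA-injected ovary, 1.72% were ovary-enriched, and these included 4 of 47 rises (8.51%) and 0 of 32 falls. Brain-enriched genes included 3 of 47 rises (6.38%) and 3 of 28 falls (10.7%), beside 3.93% of the genes with that level in JHA-injected brain. These shares rest on 4 genes at most and were not tested. The ovary-enriched genes took 0.145, 0.165 and 0.214% of gene counts in 20E fat body and 0.152, 0.134 and 0.154% in EtOH fat body. Without the 4 called rises these genes took 0.136, 0.141 and 0.182% with 20E and 0.150, 0.132 and 0.152% with EtOH. The ranges overlapped with and without the rises, and the part of ovary RNA in the 4 rises was not tested.

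The same contrast in brain and ovary shows how the called genes behaved in libraries that had no part in choosing them. The labels do not tie the tissues to single ants, and the same 3 individuals may have given all of them. In brain, 1.35% of 12379 tested genes were higher with 20E and 0.517% were lower. Of the 59 fat body rises 56 were measured in brain, 14 of these were called higher there (25%), and none was called lower. With 1 brain library left out, the 14 became 17 without 20E replicate 1, 4 without 20E replicate 2, 5 without 20E replicate 3, EtOH replicate 1 or EtOH replicate 2, and 7 without EtOH replicate 3. These 14 are 23.7% of the fat body rises and 8.38% of the 167 brain rises. Their log2 fold changes had a median of 2.73 in fat body and 1.40 in brain.

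Among the 56 measured rises, 46 (82.1%) had a brain fold change above 0, beside 46.8% of all genes tested there. Their median log2 fold change in brain was 0.47, beside -0.02 for all genes. The 41 fat body falls were all measured in brain, where 4 were called lower (9.76%) and none higher, and 33 (80.5%) lay below 0 with a median of -0.28. Those 4 are 6.25% of the 64 brain falls. They became 6 without 20E brain replicate 1, 1 without EtOH brain replicate 1 or 3, and 0 without any of the other brain libraries of these treatments. Tests of a difference in response between the tissues were not made here.

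In ovary, 0% of 11418 tested genes were called in either direction by edgeR, with 274 at an unadjusted p under 0.05 and 38 called by DESeq2. Of the fat body rises 56 were measured, 33 (58.9%) lay above 0 in ovary, beside 51.3% of all genes, and the median log2 fold change was 0.09. Of 38 measured falls 27 (71.1%) lay below 0, with a median of -0.26, beside 0.01 over all genes. The 20E ovary libraries lay far apart in some genes abundant in fat body. HSALG020002.1 had 223, 523 and 2003 CPM with 20E, against 201, 179 and 211 CPM with EtOH. HSALG013133.2 had 4.18, 34.3 and 231 CPM with 20E, against a mean of 9.57 CPM with EtOH. HSALG009096.2 was more even, at 1015, 924 and 652 CPM with 20E. Neither the source of this spread nor its effect on the ovary calls was tested. The lack of ovary calls therefore does not show a lack of response.

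**Figure D5:**
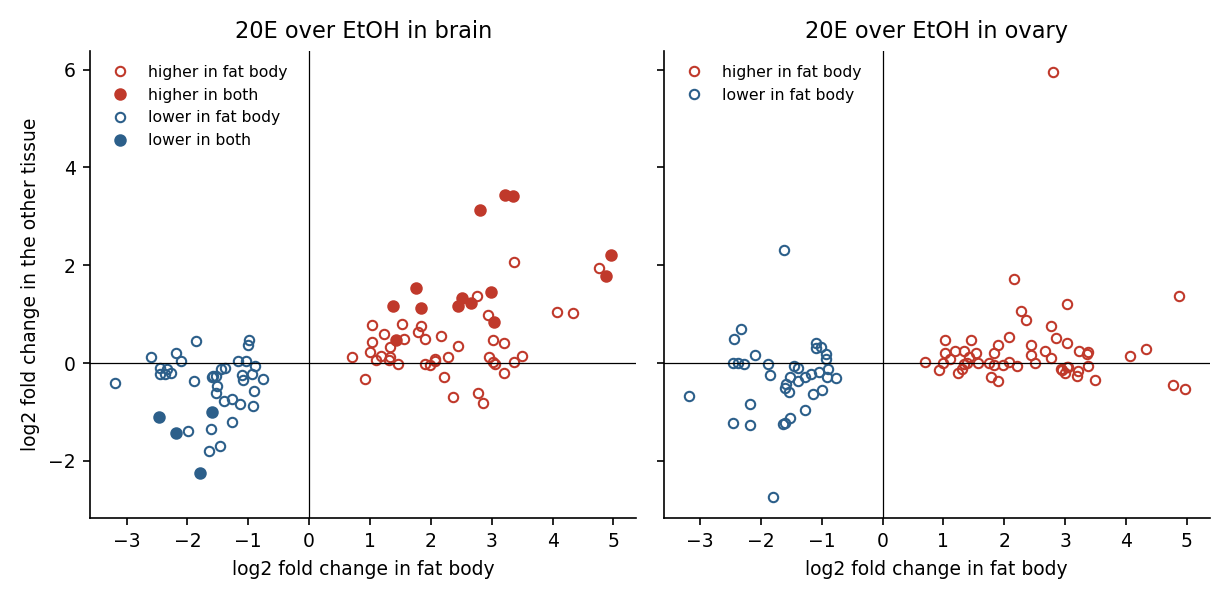
Log2 fold change of 20E over EtOH in brain (left) and ovary (right) against that in fat body, for the fat body rises (red) and falls (blue) that were measured in the other tissue; filled points were called the same way in both tissues. In brain 14 rises and 4 falls are filled, and in ovary there is none.

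HSALG001741.2 was also called in brain, at 184 ± 13.8 CPM with 20E and 53.8 ± 6.76 CPM with EtOH (SD, n = 3 each; log2 fold change 1.77, SE 0.13, adjusted p = 0.000279, edgeR). In ovary it had 43.0 ± 16.7 CPM with 20E and 16.6 ± 4.34 CPM with EtOH (SD, n = 3 each), which did not pass (log2 fold change 1.37, adjusted p = 0.918, edgeR). The solvent level was thus lowest in fat body, where the fitted fold change was largest of the 3, a difference that was not tested.

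HSALG001307.1, the rise that held most counts, had 3017, 1910 and 2053 CPM in the 20E brain libraries, against 3111, 3643 and 4467 CPM in the EtOH brain libraries. Its brain levels with 20E were all below those with EtOH, and it was not called there (log2 fold change -0.68, SE 0.21, adjusted p = 0.179, edgeR). In ovary it had 52.8, 64.6 and 118 CPM with 20E, against 37.9, 45.1 and 45.1 CPM with EtOH. Its ovary levels with 20E were thus all above those with EtOH, again without a call (log2 fold change 0.88, SE 0.33, edgeR). Neither named fall was called elsewhere, though in brain every 20E library lay below every EtOH library for both. HSALG000359.2 averaged 0.847 CPM with 20E and 3.00 CPM with EtOH in brain (log2 fold change -1.79, adjusted p = 0.142, edgeR). HSALG029290.1 averaged 6.34 CPM with 20E and 16.1 CPM with EtOH in brain (log2 fold change -1.34, adjusted p = 0.322, edgeR). HSALG000359.2 averaged 15.7 ± 9.14 CPM with 20E and 37.3 ± 10.6 CPM with EtOH in ovary (SD, n = 3 each; log2 fold change -1.25, adjusted p = 1.00, edgeR), and HSALG029290.1 was near absent from ovary, at 0.830 CPM with 20E and 0.161 CPM with EtOH.

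How many genes were called depended on which libraries were fitted. With 1 of the 9 libraries left out, 13 to 105 genes were called: 13 without EtOH replicate 1, 35 without EtOH replicate 2, 26 without EtOH replicate 3, 32 without 20E replicate 2, 33 without 20E replicate 3 and 57 without JHA replicate 3. DESeq2 called 524 genes, of which 237 rose and 287 fell, and all 100 calls of edgeR were among them. Of the called genes, 8 rises and 3 falls passed in all 18 alternative fits, and 46 rises and 20 falls in at least 9. The direction of single calls held throughout for the 4 named genes, whose log2 fold changes stayed between 2.18 and 2.61 for HSALG001307.1, 4.77 and 5.01 for HSALG001741.2, -1.85 and -1.49 for HSALG029290.1, and -1.76 and -1.54 for HSALG000359.2.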

How the data were processed

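Poly(A) RNA libraries (NEBNext Ultra II) were sequenced on an Illumina HiSeq, per the labels' protocols. The authors deposited raw read counts for each gene. The submitters' processing notes name Trimmomatic, HTSeq and STAR 2.5.3a. Sources used here do not state the genome build, the annotation or the strand setting, so overlapping or antisense genes may share reads, and reads aligned to several places are not in the gene counts. The 5 HTSeq summary lines entered neither library sizes nor tests.

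Counts were fitted with edgeR 4.0.16 in R 4.3.3 (TMM, filterByExpr, robust glmQLFit, glmQLFTest) over the 9 libraries of a tissue, without a replicate block. Tested genes held at least 99.9% of fat body gene counts. CPM uses TMM library sizes, SE is implied by the F statistic, and the median biological coefficient of variation was 25.2%. The scripts were tested on simulated data. No pair of fat body replicates agreed within sampling noise (chi-square at least 115 per degree of freedom). Tissue-enriched genes had at least 10 CPM in the JHA libraries of a tissue and at least 8 times the mean CPM of each other tissue plus 1.

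Genes are named by rule: in each direction the smallest p and the largest CPM difference, and the 5 most abundant. The comparison, lists and rules were chosen with earlier results of these data known. Lists of hormone response genes and cell type markers could not be applied, because the identifiers are not paired with names. Alternatives were DESeq2 1.42.0, its size factors, total counts, scaling without the 10 most abundant genes, voom of limma 3.58.1 with library weights, other filters, the 6 libraries alone, a replicate block, and leaving out each library.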

Additional observations from a re-analysis of the deposited data

Results flagged for a closer look

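Reads that aligned to several places stood higher with 20E, at 17.9% with 20E and 15.6% with EtOH, a measure outside the gene counts. Reads that matched more than 1 gene were likewise higher, at 2.11% with 20E and 1.85% with EtOH. For HSALG001307.1 every 20E library lay above the EtOH libraries in fat body and below them in brain. Its log2 fold change was 2.36 in fat body and -0.68 in brain. In ovary every 20E library also lay above the EtOH libraries (log2 fold change 0.88), without a call. The differences between tissues were not tested.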

How the results depend on the processing

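The count of 100 called genes was 524 with DESeq2 (237 higher, 287 lower, so 45.2% higher), 66 with voom and library weights (37 higher), 33 with the 6 libraries alone (23 higher, 10 lower) and 52 with the replicate block (33 higher, 19 lower). Total counts without TMM left 24 falls. With 1 library left out, 13 to 105 genes were called, 8 to 76 higher and 5 to 36 lower. Without a filter on low counts 126 were called, and with at least 1 CPM in 3 libraries 100. Same-numbered libraries of the 2 treatments had correlations of -0.21, -0.15 and 0.00, and differently numbered ones -0.03 to 0.18. Levels were first centred within each group of 3, which ties these values to each other. The correlations therefore cannot decide whether the numbers pair libraries, which the labels do not say. Among the 100 most abundant genes, 1 was called with the 6 libraries alone, 9 with DESeq2, 0 with the block and 0 to 2 with 1 library left out. HSALG002043.2 had a log2 fold change of -0.28 with the block and -0.47 to 0.41 with 1 library left out, and HSALG009096.2 -0.24 to 0.42. The difference in the number of genes holding 50% of counts, -8.33, was -0.333 for 25% and 9.67 for 75%. The ovary-enriched share differed by -0.00969 points with a 20-fold floor, against 0.0275. Genes that rose in both fat body and brain, 14 of the 59 fat body rises, numbered 53 of the 237 rises that DESeq2 called in fat body and 4 of 33 with the block. Genes that fell in both, 4 of 41, numbered 22 of 287 with DESeq2 and 0 of 19 with the block. With 1 brain library left out, 4 to 17 of the 59 and 0 to 6 of the 41 were called in brain. In ovary DESeq2 called 12 of its own 237 fat body rises and 1 of its 287 falls, and 0 to 1 of the 59 were called by edgeR with 1 ovary library left out. The block also ended the calls of HSALG001307.1 (adjusted p = 0.0579, edgeR) and HSALG029290.1 (adjusted p = 0.0808, edgeR). The causes of these shifts were not tested. Groups of 3 ants, identifiers with no names and an unstated strand setting limit what can be said of single genes.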
